A study of Mus musculus with 4 samples.

Results

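The circadian clock genes described here are *Per1*, *Per2*, *Per3*, *Cry1*, *Cry2*, *Arntl*, *Clock*, *Nr1d1*, *Nr1d2* and *Dbp*, 10 of the 55367 gene symbols in the count tables, chosen by name for their known role and matched on the symbol. All 10 were found and all 10 passed the low-count filter. RNA was sequenced from sorted splenic CD4+ T cells of C57BL/6 mice, with 2 libraries labelled WT and 2 labelled *Satb1* conditional knockout (cKO). The knockout line carries floxed *Satb1* (*Satb1* F/F) and a *ThPOK-cre* transgene, which deletes after commitment to the CD4 lineage and is meant to spare other lineages, so its reach is that of this promoter. The *Satb1* and Cre alleles of the WT mice are not stated, no group received a treatment, and the study gives age and sex only for its mice in general.

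The mammalian clock is a feedback loop of transcription. The CLOCK and BMAL1 proteins, the latter encoded by *Arntl*, bind E-boxes and activate the Period, Cryptochrome and REV-ERB genes and *Dbp*, and the PER and CRY proteins then block their own activators. REV-ERB proteins, from *Nr1d1* and *Nr1d2*, repress *Arntl* through elements that the ROR receptors activate, so that *Arntl* peaks at the opposite time of day from *Nr1d1*, *Dbp* and the Period genes, while *Clock* cycles weakly and *Cry1* peaks late. Lymphocytes hold such a clock, and it is known to time their traffic through lymphoid organs. The question put to the data was whether genes of opposing phase differ in opposite directions between the genotypes, the pattern that unequal times of collection would give. No time of collection is given in the sources used here, so it cannot be told apart from genotype.

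The elements that join these genes are short, and 4 promoter windows are shown because they hold the E-box, the D-box or the core of the ROR element beside genes whose levels are compared below. Each window is a RefSeq sequence of GRCm38.p6 that runs from 250 bases before a transcription start to 50 bases from it on, written 5′ to 3′ along the gene, with capitals for the motifs found. *Per1*, whose protein is an inhibitor of CLOCK and BMAL1, is read on the plus strand at chr11:69098699-69098998. *Cry1*, whose protein is the strongest inhibitor of the loop, is read on the minus strand at chr10:85185005-85185304. *Per3*, a weaker Period gene, is read on the minus strand at chr4:151044616-151044915. *Arntl* is read on the plus strand at chr7:113207261-113207560.
Per1: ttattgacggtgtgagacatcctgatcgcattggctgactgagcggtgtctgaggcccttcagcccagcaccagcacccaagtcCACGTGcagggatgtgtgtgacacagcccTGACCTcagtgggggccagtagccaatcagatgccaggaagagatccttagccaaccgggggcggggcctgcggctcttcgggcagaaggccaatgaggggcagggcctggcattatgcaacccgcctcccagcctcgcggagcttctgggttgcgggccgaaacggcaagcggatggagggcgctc
Cry1: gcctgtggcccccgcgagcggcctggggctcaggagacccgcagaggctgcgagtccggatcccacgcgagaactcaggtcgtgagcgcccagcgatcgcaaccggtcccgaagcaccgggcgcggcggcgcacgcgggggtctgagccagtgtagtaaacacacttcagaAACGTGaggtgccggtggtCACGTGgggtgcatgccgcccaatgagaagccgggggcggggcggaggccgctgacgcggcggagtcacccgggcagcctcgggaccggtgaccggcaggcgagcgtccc
Per3: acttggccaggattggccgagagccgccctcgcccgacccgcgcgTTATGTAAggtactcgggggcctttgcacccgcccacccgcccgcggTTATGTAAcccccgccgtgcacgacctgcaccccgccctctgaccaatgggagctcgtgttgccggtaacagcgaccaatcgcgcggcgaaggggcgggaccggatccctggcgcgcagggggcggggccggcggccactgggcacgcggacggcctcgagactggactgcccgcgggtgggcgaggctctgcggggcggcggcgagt
Arntl: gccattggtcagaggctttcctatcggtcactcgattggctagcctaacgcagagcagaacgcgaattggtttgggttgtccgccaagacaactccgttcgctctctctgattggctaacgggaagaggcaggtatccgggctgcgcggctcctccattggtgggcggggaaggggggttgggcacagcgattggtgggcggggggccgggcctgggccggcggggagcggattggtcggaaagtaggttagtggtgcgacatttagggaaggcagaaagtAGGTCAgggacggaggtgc

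The motifs searched on both strands were the E-box CACGTG, the variant E-box CACGTT, the ROR element core AGGTCA and the D-box TTANGTAA, to which the DBP protein and its relatives bind. The *Per1* window holds an E-box whose outermost base lies 166 bases before the start, and a ROR core on the opposite strand at 137. The *Cry1* window holds an E-box at 60 and a variant E-box at 79 bases before the start. The *Per3* window holds a pair of D-boxes at 205 and 158, and the *Arntl* window a ROR core 32 bases into the transcript. Of 9 members with a window, 2 had the E-box, 3 the variant E-box, 4 the ROR core and 1 the D-box in at least 1 of their 13 windows. Of all 32851 windows of this length, 7.15% held the E-box, 4.68% the variant, 16.3% the ROR core and 2.32% the D-box. Those shares are of single windows, while the members were counted as genes, some with several windows, so the figures are not directly comparable. The motifs are matches of letters and not measured binding sites. *Per2* had no entry in the table of windows.

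The total gene count ran from 4495902 to 6555699 per library. Levels are given as CPM, the count per 1000000 counts of the library, with totals adjusted by TMM factors (trimmed mean of M values). *Satb1* did not separate the genotype labels, with 868 and 984 CPM in the WT libraries and 945 and 847 CPM in the cKO libraries (log2 fold change -0.05, edgeR adjusted p = 0.877), so each direction follows the labels. *Foxp3*, which encodes the defining factor of regulatory T cells, did separate them, at 142 and 120.5 CPM against 405 and 547 CPM (log2 fold change 1.86, edgeR adjusted p = 0.000447). *Xist* was at 833 and 949 CPM in the libraries labelled WT and at 1.72 and 1.27 CPM in those labelled cKO, while the Y-linked genes *Ddx3y*, *Eif2s3y*, *Kdm5d* and *Uty* were at or under 0.153 CPM in the WT libraries and at 26.3 CPM or more in the cKO libraries. Sex-linked pattern and genotype therefore cannot be told apart. The 7 T cell markers summed to between 4744 and 5708 CPM. Among them 1 was called higher under the cKO label, where 2.35% of all tested genes were. This was *Zbtb7b*, at 232 and 200 CPM against 337.5 and 345 CPM (log2 fold change 0.66, edgeR adjusted p = 0.0118). The CD8 markers *Cd8a* and *Cd8b1* summed to 47.7 and 58.5 CPM against 34.3 and 26.8 CPM, most of it from *Cd8b1* in each library. *Cd8b1* was called lower under the cKO label (log2 fold change -0.91, edgeR adjusted p = 0.0201). *Cd8a* was not called, and its libraries overlapped between the labels (log2 fold change -0.07, edgeR adjusted p = 0.941). The 9 B cell markers summed to 39.8 and 47.05 CPM in the libraries labelled WT and to 195.5 and 77.6 CPM in cKO 1 and cKO 2, and the 10 myeloid markers to 29.1 and 37.4 CPM against 106.9 and 62.3 CPM. The 6 erythroid markers summed to 101.1 and 314.1 CPM against 10.1 and 222.1 CPM. No marker of these lists was at 0 in all 4 libraries.

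Per length of transcript, as counts over exonic length scaled to the same sum in each library (TPM), *Cry1* had the highest level of the 10 genes, at 53.1 ± 5.40 TPM (SD, n = 4 libraries of both labels), and *Per3* the lowest, at 1.19 ± 0.287 TPM. *Per1* followed *Cry1* at 46.2 TPM and *Dbp* at 38.0 TPM, and the ranges of these neighbours over the 4 libraries overlapped. *Arntl* at 18.2 TPM lay below *Dbp* with no overlap. From *Arntl* the order ran through *Nr1d2* at 15.3, *Cry2* at 12.1, *Clock* at 9.62 and *Nr1d1* at 9.53 TPM, each overlapping with the next. *Per2* at 6.02 TPM lay under all libraries of *Nr1d1*, and *Per3* under all libraries of *Per2*. The clock was thus read at raw counts between 10, for *Per3* in WT 2, and 580, for *Per1* in cKO 1.

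None of the 10 clock genes was called between the genotypes. A call was an adjusted p under 0.05 from edgeR's quasi-likelihood fit. Across all 12403 genes tested the same rule called 4.30%. At an unadjusted p under 0.05 a single member passed, *Per1*, where 19.1% of all tested genes did. DESeq2 called 0 of the 10, against 3.44% of all genes, and the edgeR likelihood ratio test called 1, again *Per1*, against 8.84%. The median log2 fold change of the members was 0.06, where 6 lay above 0 and 4 lay under it, and that of all tested genes was -0.0015. The members' median was 0.21 without cKO 1 and 0.13 without WT 2. The fold intervals of 8 members lay wholly between 0.5 and 2, and only those of *Per1* and *Per3* reached above 2. In bulk RNA, fewer cells of a type and less RNA per cell cannot be told apart.

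**Figure D1:**
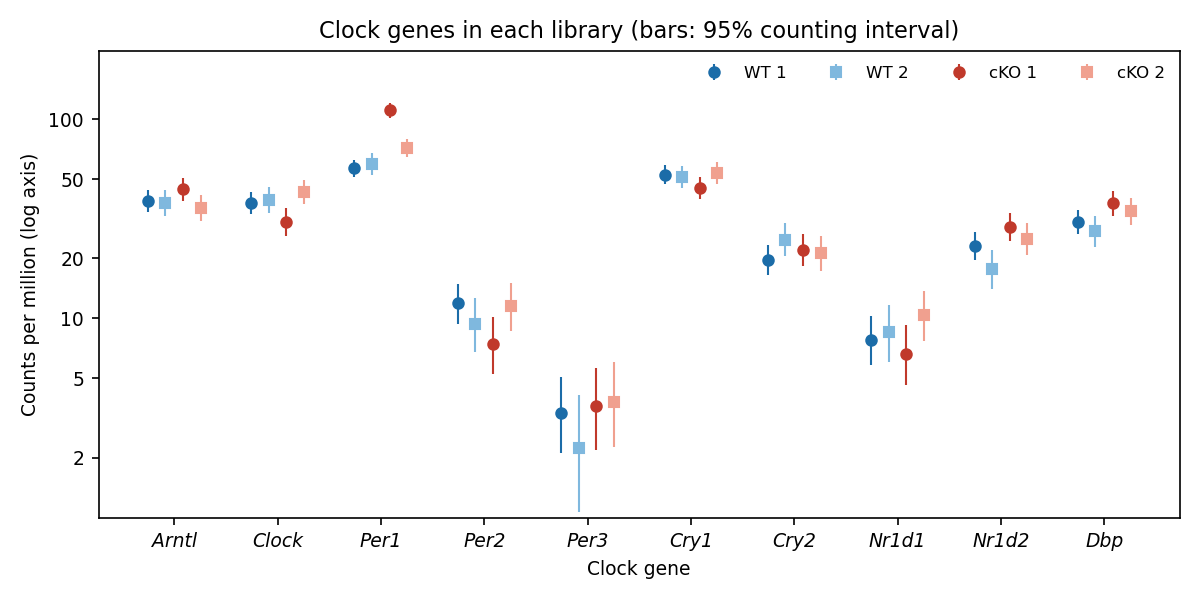
CPM (log axis) of the 10 clock genes in each of the 4 libraries, with 95% exact Poisson intervals that cover counting error only. *Per1* stands apart in cKO 1 at 110.5 CPM, and the 4 libraries of *Arntl* lie between 35.9 and 44.4 CPM.

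The activators came first. *Arntl* (chromosome 7, 113207465 to 113314126, plus strand of GRCm38) had 38.9 and 38.1 CPM in WT 1 and WT 2 and 44.4 and 35.9 CPM in cKO 1 and cKO 2. The cKO libraries lay on either side of the WT libraries. Its log2 fold change of 0.06 had an SE of 0.15 (edgeR adjusted p = 0.862), and the fold interval ran from 0.83 to 1.32. *Clock* (chromosome 5, 76209868 to 76304792, minus strand), the partner of BMAL1 in the activating dimer, had 37.9 and 39.2 CPM in the WT libraries and 30.5 and 43.2 CPM in the cKO libraries. Here cKO 1 was the lowest and cKO 2 the highest of the 4, and their counting intervals (26.0 to 35.6 and 37.4 to 49.5 CPM) did not meet. The log2 fold change of *Clock* was -0.07 with an SE of 0.18 (edgeR adjusted p = 0.874). Both signs turned without cKO 1, to -0.10 for *Arntl* and 0.16 for *Clock*.

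*Per1* (chromosome 11, 69095217 to 69109960, plus strand) showed the largest log2 difference of the 10 members with all 4 libraries, a place that *Per3* took without WT 1 (0.73 against 0.62) and without cKO 1 (0.41 against 0.30). It had 370 and 266 counts under the WT label and 580 and 337 under the cKO label, which is 56.6 and 59.6 CPM against 110.5 and 71.6 CPM. Both cKO libraries lay above both WT libraries, and cKO 1 lay far above cKO 2, with counting intervals of 102 to 120 and 64.2 to 79.7 CPM. The means were 58.1 ± 2.13 CPM (SD, n = 2) and 91.1 ± 27.5 CPM (SD, n = 2). The log2 fold change of 0.65 (SE 0.19) is a fold of 1.57 with an interval from 1.17 to 2.11, and it did not pass the threshold (edgeR adjusted p = 0.0948, unadjusted 0.00704). Without cKO 1 it was 0.30 (adjusted p = 0.128) and without cKO 2 it was 0.93 (adjusted p = 3.00e-07). Over all alternatives the adjusted p ran from 3.00e-07 to 0.331.

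*Per1* is also known to respond quickly to glucocorticoids and to cell stimulation, and lists of such genes are given beside it. The 11 glucocorticoid-responsive genes summed to 2020 and 2100 CPM in the libraries labelled WT, 3918 CPM in cKO 1 and 2687 CPM in cKO 2. The sum stood in the same order as *Per1*, but *Il7r*, *Cxcr4*, *Ddit4* and *Tsc22d3* made up most of it in each library, and 3 of the 10 tested genes had a negative fold change. Of the 10 tested, 2 were called higher, where 2.35% of all tested genes were, *Il7r*, the receptor chain for interleukin 7, and *Cxcr4*, a chemokine receptor. *Tsc22d3*, which encodes the glucocorticoid-induced protein GILZ, had 499 and 575 CPM against 946 and 621 CPM (log2 fold change 0.55, edgeR adjusted p = 0.148). *Fkbp5*, another glucocorticoid target, had 129 and 115 CPM against 120 and 114 CPM. *Sgk1*, a glucocorticoid-induced kinase, had 155 and 112 CPM against 102 and 57.2 CPM (log2 fold change -0.75, edgeR adjusted p = 0.139, unadjusted 0.0144). *Zbtb16*, a transcription factor gene of the list, had 3.37 and 3.81 CPM against 1.71 and 3.19 CPM (log2 fold change -0.55, edgeR adjusted p = 0.538). The 16 immediate early genes summed to 1569 and 1449 CPM against 1592 and 1461 CPM, with 0 of 14 tested called by edgeR, by DESeq2 or by the likelihood ratio test and 5 at an unadjusted p under 0.05, where 19.1% of all tested genes lay. The 10 heat shock genes summed to 3259 and 2895 CPM against 4657 and 4415 CPM, with 6 of 9 tested called higher, against the same 2.35%. The part of these genes in the level of *Per1* was not tested, nor was that of the B cell and myeloid markers given above, which were also highest in cKO 1.

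**Figure D2:**
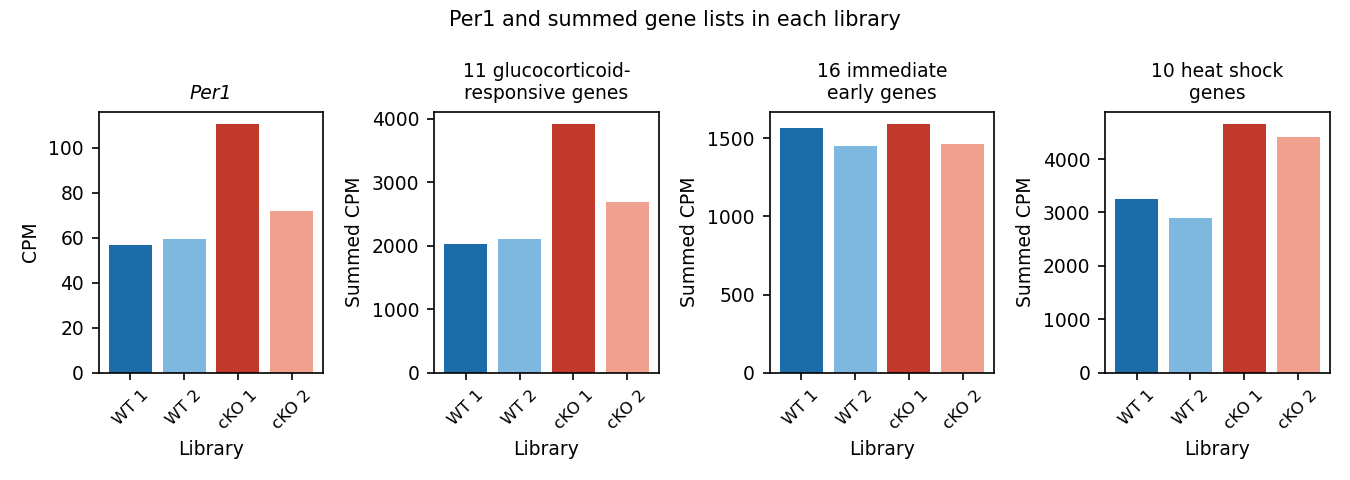
CPM of *Per1* and summed CPM of 3 gene lists, 1 bar for each library, with axes that start at 0. *Per1* and the glucocorticoid-responsive genes are highest in cKO 1 (110.5 and 3918 CPM), and the immediate early genes lie between 1449 and 1592 CPM.

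The other Period genes were lower in level and less precise. *Per2* (chromosome 1, 91415982 to 91459324, minus strand) had 11.9 and 9.41 CPM in the WT libraries and 7.43 and 11.5 CPM in the cKO libraries. The groups overlapped, and in cKO 1, where *Per1* was highest, *Per2* was at its lowest. Its log2 fold change of -0.20 had an SE of 0.28 (edgeR adjusted p = 0.763), and it was 0.08 without cKO 1 and 0.01 without WT 1. *Per3* (chromosome 4, 151003652 to 151044665, minus strand) had 22 and 10 counts under the WT label and 19 and 18 under the cKO label, or 3.37 and 2.24 CPM against 3.62 and 3.83 CPM. The groups did not overlap, though counting error alone spans 1.07 to 4.12 CPM in WT 2. The log2 fold change of *Per3* was 0.37 with an SE of 0.38 (edgeR adjusted p = 0.661), and it was 0.73 without WT 1 and 0.14 without WT 2.

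The Cryptochrome genes encode the repressors that complete the loop. *Cry1* (chromosome 10, 85131700 to 85185064, minus strand) had 52.6 and 51.3 CPM in the WT libraries and 45.4 and 53.6 CPM in the cKO libraries. Its fold interval was the narrowest of the members on the log scale, from 0.77 to 1.17, around a log2 fold change of -0.07 (edgeR adjusted p = 0.817). *Cry2* (chromosome 2, 92403646 to 92434043, minus strand) had 19.7 and 24.9 CPM against 22.1 and 21.3 CPM. Both cKO libraries lay between the WT libraries, and the log2 fold change was -0.03 (edgeR adjusted p = 0.958).

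The REV-ERB genes were not called either. *Nr1d1* (chromosome 11, 98767932 to 98775333, minus strand) had 7.80 and 8.51 CPM in the WT libraries and 6.67 and 10.4 CPM in the cKO libraries, so the cKO libraries enclosed the WT libraries. Its log2 fold change was 0.06 (SE 0.29, edgeR adjusted p = 0.937). *Nr1d2* (chromosome 14, 18204054 to 18239127, minus strand) had 23.1 and 17.7 CPM in the WT libraries and 28.8 and 25.1 CPM in the cKO libraries. The groups did not overlap, with a log2 fold change of 0.39 (SE 0.18, edgeR adjusted p = 0.296), which was 0.61 without WT 1 and 0.22 without WT 2. *Dbp* (chromosome 7, 45705088 to 45710203, plus strand), a D-box activator and a standard output of the loop, had 30.4 and 27.3 CPM against 37.7 and 34.65 CPM. These groups did not overlap either, with a log2 fold change of 0.32, an SE of 0.14 and an edgeR adjusted p = 0.266. The fold interval of *Dbp* ran from 0.998 to 1.56. Exons of *Sphk2* on the opposite strand cover 18.0% of the exonic bases of *Dbp*, and exons of *Thra* cover 8.5% of those of *Nr1d1*. The strand setting of the counting is not given in the sources used here, so reads in those bases are uncertain.

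The libraries of the genotypes did not overlap for 4 of the 10 members, *Per1*, *Per3*, *Nr1d2* and *Dbp*, where 50.3% of all tested genes did not overlap. All 4 were higher in the libraries labelled cKO, a pattern that 24.8% of all tested genes had. Within the WT label the counting intervals of the libraries met for 10 of 10 members, and within the cKO label for 8, all but *Per1* and *Clock*. Between the cKO libraries, 5 members were higher in cKO 1 and 5 in cKO 2. *Per1* was lower in cKO 2 by a log2 ratio of -0.63, while *Per2* was higher by 0.63, *Nr1d1* by 0.64 and *Clock* by 0.50.

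**Figure D3:**
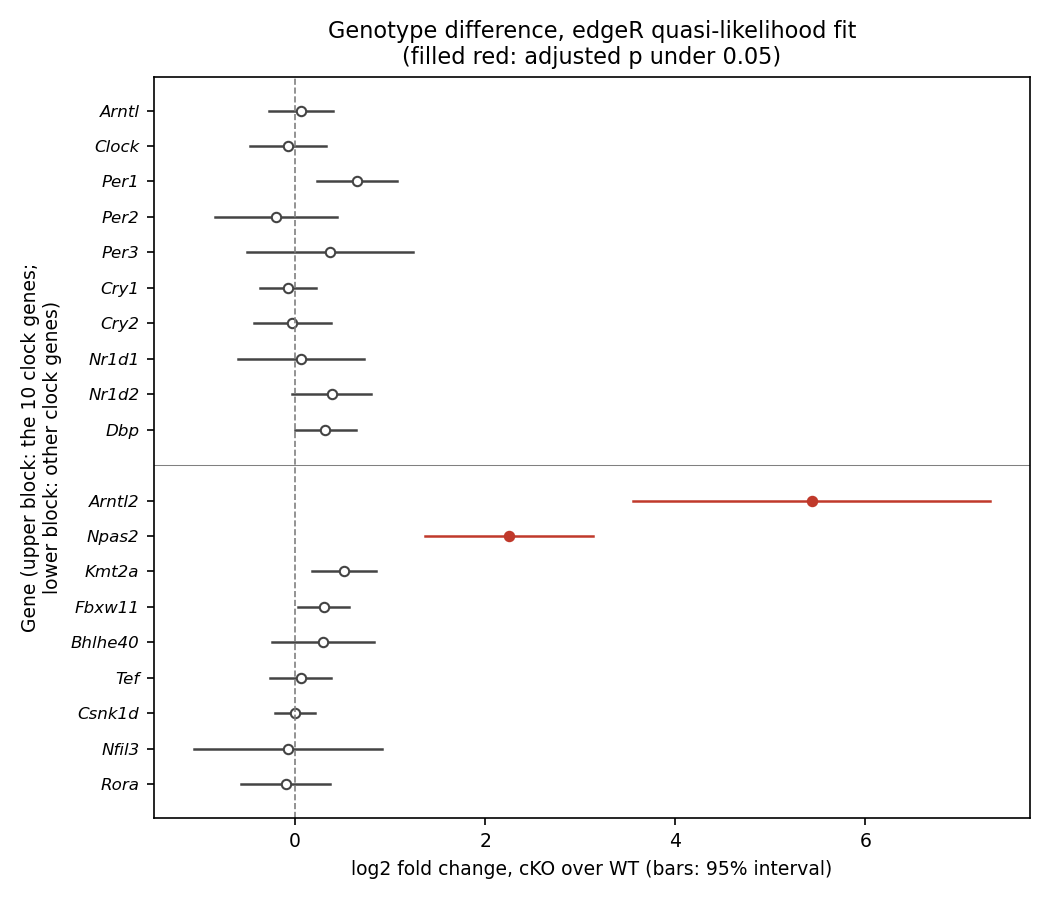
Log2 fold change of cKO over WT with its 95% interval from the edgeR quasi-likelihood fit, for the 10 clock genes (upper block) and 9 of the 24 other clock genes tested (lower block). Filled red points have an adjusted p under 0.05, which no member of the upper block has, and the size of the *Arntl2* point rests on the prior count because the gene is near 0 in WT.

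Genes of opposing phase were then set against each other in each library. The mean log2 CPM of *Arntl* and *Clock* was 5.28 and 5.29 under the WT label against 5.22 and 5.31 under the cKO label. The genotype difference of this mean was -0.02 with a pooled SD between replicates of 0.05. The mean log2 CPM of *Per1*, *Per2*, *Per3*, *Nr1d1*, *Nr1d2* and *Dbp* was 3.98 and 3.79 under the WT label against 4.12 and 4.17 under the cKO label, a difference of 0.26 with an SD of 0.10. The side that is repressed by PER and CRY was therefore higher in both cKO libraries by more than the replicate SD, and the side of the activators differed by less than it. No test was made of these scores, since the genes were chosen with earlier results of these data known.

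The difference of both means, activators minus the other side, was 1.30 and 1.501 under the WT label and 1.10 and 1.14 under the cKO label. It was lower in the cKO libraries by a log2 difference of -0.28 with an SD of 0.10, and by -0.18 without WT 2. Of the 6 genes of the other side, 5 were higher and 1 was lower under the cKO label. Pairs of opposite sign were thus 1 of 6 for *Arntl* (0.06) and 5 of 6 for *Clock* (-0.07). Because the activators themselves differed in sign, each of the 6 genes had to oppose exactly 1 of them. The total of 6 among the 12 pairs was therefore fixed and says nothing about opposing phase. The split between *Arntl* and *Clock* moved when a library was left out. Without cKO 1, *Arntl* was at -0.10 and *Clock* at 0.16, and the pairs of opposite sign were 6 of 6 for *Arntl* and 0 of 6 for *Clock*. In the same order they were 0 and 6 without WT 1, and 2 and 4 without cKO 2. For *Arntl* against *Nr1d1*, *Nr1d2* and *Dbp* alone, the contrast differed by -0.20 with an SD of 0.21, so by less than the replicate SD, and cKO 1 at 1.17 lay above WT 1 at 1.12. Without *Per1*, an alternative chosen after seeing the data, the other side differed by 0.19 with an SD of 0.16, and WT 1 at 3.61 lay above cKO 1 at 3.58. With *Npas2*, *Nfil3* and *Cry1* added to the activators and *Tef* to the other side, the contrast turned to 0.12, less than its replicate SD of 0.17. With *Cry1* beside the activators and *Cry2* on the other side it was -0.26 with an SD of 0.077.

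**Figure D4:**
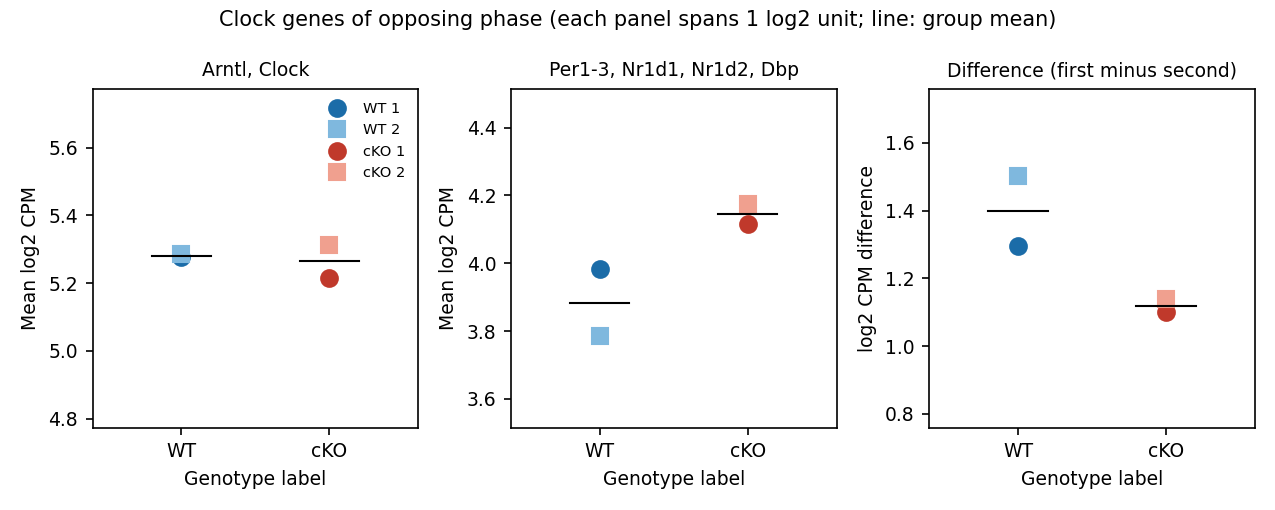
Mean log2 CPM per library of *Arntl* and *Clock* (left), of *Per1*, *Per2*, *Per3*, *Nr1d1*, *Nr1d2* and *Dbp* (middle), and their difference (right), with black lines at the group means. The left panel shows WT and cKO means that differ by -0.02, and the middle panel shows both cKO libraries above both WT libraries.

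Beyond the 10 genes, 29 other genes of the clock pathway were examined, of which 24 passed the low-count filter. Among them 2 were called higher in the libraries labelled cKO, where 2.35% of all tested genes were, and 1 was called lower, where 1.95% were. Both genes called higher are paralogs of the activators that drive the loop. *Npas2*, a paralog of *Clock* that can replace it as partner of BMAL1, had 10 and 5 counts under the WT label and 33 and 32 under the cKO label, or 1.53 and 1.12 CPM against 6.29 and 6.80 CPM. It was up-regulated by a log2 fold change of 2.25 with an SE of 0.39 (edgeR adjusted p = 0.0155), larger than the spread between replicates. *Npas2* lost its call without WT 2 (adjusted p = 0.127).

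*Arntl2* (chromosome 6, 146796055 to 146833529, plus strand), a paralog of *Arntl* whose protein also pairs with CLOCK, had 0 and 1 counts under the WT label and 19 and 30 under the cKO label. Both WT libraries lay under a floor of 3 counts (0.459 and 0.672 CPM). The mean CPM of the libraries labelled cKO was 8.84-fold the mean of these floors, a ratio that leaves out counting error. *Arntl2* was called higher under the cKO label (edgeR adjusted p = 0.00949). Its call was kept in all 12 alternative fits, with adjusted p from 9.11e-11 to 0.0239.

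*Rora*, which encodes a ROR receptor that activates *Arntl*, had 25.5 and 37.4 CPM in the WT libraries and 26.1 and 32.1 CPM in the cKO libraries (log2 fold change -0.10, edgeR adjusted p = 0.844). *Clock* and *Arntl* thus did not pass the test while their paralogs *Npas2* and *Arntl2* did, and per length the paralogs stood lower, with means over the 4 libraries of 2.91 TPM for *Npas2* and 1.61 TPM for *Arntl2* against 9.62 and 18.2 TPM. The 8 genes of the regulatory T cell list summed to 513 and 434 CPM in the WT libraries and 882 and 1101 CPM in the cKO libraries, with 4 called higher and 1 lower by edgeR, where 2.35% and 1.95% of all tested genes were. Their part in the levels of *Npas2* and *Arntl2* was not tested, nor was that of the B cell and myeloid markers.

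**Figure D5:**
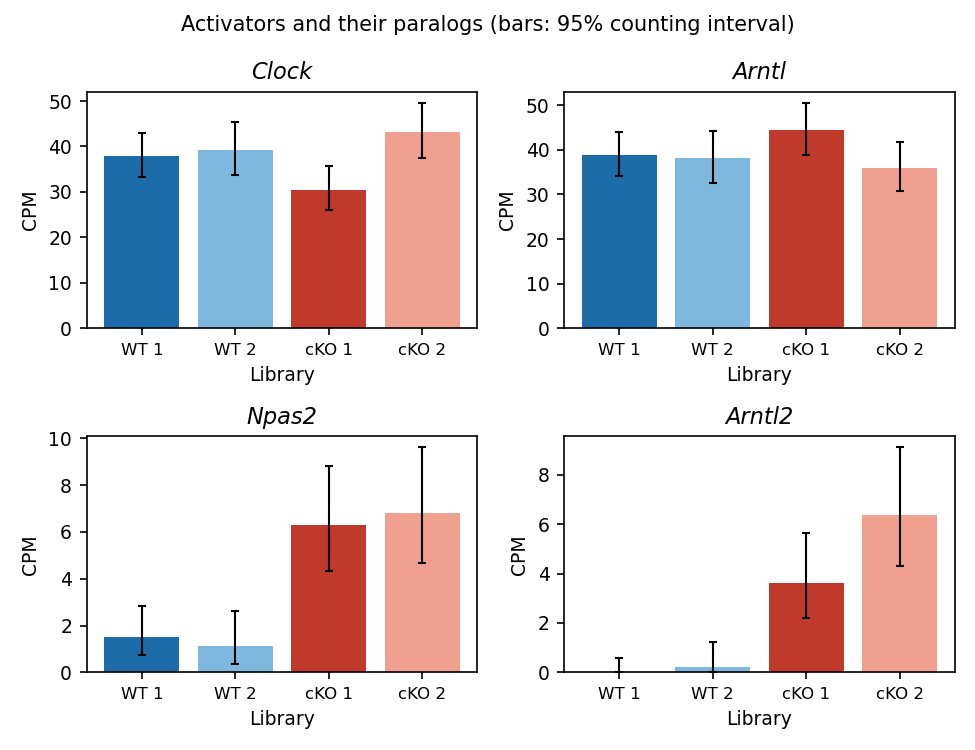
CPM in each library of *Clock* and *Arntl* (upper row) and of their paralogs *Npas2* and *Arntl2* (lower row), with 95% exact Poisson intervals and axes that start at 0. Both cKO libraries lie above both WT libraries for *Npas2* and *Arntl2*, while for *Clock* and *Arntl* they lie on either side of them.

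Among outputs and repressors, *Tef*, a relative of *Dbp* with an E-box in its promoter windows, had 27.7 and 29.4 CPM in the WT libraries and 30.7 and 28.7 CPM in the cKO libraries. Its log2 fold change was 0.06 (edgeR adjusted p = 0.860), so these D-box activators gave 0.06 and, for *Dbp*, 0.32. *Nfil3*, the repressor that competes for D-boxes, had 3.98 and 5.83 CPM against 2.86 and 6.38 CPM, with the cKO libraries enclosing the WT libraries. *Bhlhe40*, an E-box repressor induced in activated T cells, had 9.48 and 8.07 CPM against 10.5 and 11.3 CPM (log2 fold change 0.30, edgeR adjusted p = 0.556). *Ciart*, a repressor with 3 E-boxes in its window, lay between 1.68 and 2.29 CPM in all libraries and was not tested. *Hlf* ranged from 0 to 1.68 CPM, and *Bhlhe41* and *Rorb* had 0 counts in each library, which allows up to 0.672 CPM in the shallowest.

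No call was made among the kinases and ubiquitin-pathway genes that set the life span of PER and CRY proteins. Of 9 such genes 8 were tested and 0 were called by edgeR or by DESeq2, with 1 at an unadjusted p under 0.05 in edgeR, beside 4.30% and 19.1% of all tested genes in edgeR. *Csnk1d*, a casein kinase that marks PER for decay, had 189 and 182 CPM in the WT libraries and 189 and 183 CPM in the cKO libraries. Its fold interval ran from 0.86 to 1.16. *Fbxw11*, which targets PER, had 72.5 and 71.7 CPM against 95.7 and 82.0 CPM (log2 fold change 0.30, edgeR adjusted p = 0.207). Of 9 partners and chromatin or metabolic links, 0 were called and 2 had an unadjusted p under 0.05, against the same shares of all genes. Among these *Kmt2a*, a histone methyltransferase that binds CLOCK, had 530.0 and 524 CPM against 636 and 871 CPM (log2 fold change 0.52, edgeR adjusted p = 0.0968), and DESeq2 and the likelihood ratio test called it.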

How the data were processed

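Splenic CD4+ T cell RNA gave 4 libraries, grouped by genotype label alone. The authors aligned reads to mm10 with HISAT2 2.1.0 and counted them with HTSeq (0.11.1 per the submitters' processing notes, where the study's methods name another version), and deposited the raw count of reads per gene symbol. The summary lines that name no gene, among them reads outside annotated genes (59.4% to 64.5% of reads aligned to a single place), were left out. Genes were kept with filterByExpr, scaled by TMM and tested with the edgeR 4.0.16 quasi-likelihood F test in R 4.3.3, two-sided, with Benjamini-Hochberg adjustment over all 12403 genes tested. Alternatives were DESeq2 1.42.0, the likelihood ratio test, other scalings and filters, a replicate block, equal depth and each library left out. The SE is the absolute log2 fold change over the square root of F, and intervals at 95% use the moderated t distribution. Per-library log2 CPM used a prior count of 2. Positions and exonic lengths came from GENCODE M21 (GRCm38), which matched 53292 of 55367 symbols, promoter windows from RefSeq. The procedure was tested on simulated data. The study calls the libraries of a label biological replicates and, unless otherwise specified, counts each as a mouse, and p-values measure the spread between these few libraries. Exact Poisson intervals and floors cover counting error only, since no molecular identifiers mark independent molecules. With 2 against 2, an exact permutation test of a single gene could not pass the threshold, so none was run. The members and lists were chosen with earlier results of these data known. Named genes were the 10 members, *Satb1*, and other clock genes that were called or belong to the PAR bZIP, BHLHE, *Npas2*, *Nfil3* or *Ciart* group with a library above 1 CPM. *Rora*, *Csnk1d*, *Fbxw11*, *Kmt2a*, *Foxp3*, *Zbtb7b*, *Cd8a*, *Cd8b1* and the genes of the hormone list were named after their values were seen. Some genes of the lists are not reported here.
 Some genes of the lists are not reported here.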

Additional observations from a re-analysis of the deposited data

How the results depend on the processing

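A single choice (test, scaling, filter, design, depth or a library left out) was changed in each alternative. A fit without a library leaves a lone library that is assumed to vary like the other group. The number of genes called, 533, was 1367 without a low-count filter, 1096 in the likelihood ratio test and 1165 with the replicate block, and 180 to 1790 with any 1 library removed. Each of the first 3 settings called 1 clock gene, *Per1*, with log2 fold changes of 0.65, 0.65 and 0.64, as did the fit without cKO 2, so that 0 to 1 members were called with any 1 library removed. Other clock genes called ran from 1 to 8 and the members' median from 0.046 to 0.21 in those fits. The phase contrast of -0.28 ran from -0.38 to -0.18 in those fits and was -0.26 (SD 0.077) with *Cry1* and *Cry2*, 0.12 (SD 0.17) with the other clock genes and -0.20, less than its SD of 0.21, for *Arntl* against *Nr1d1*, *Nr1d2* and *Dbp*. The causes were not tested. When a library was left out, signs turned for *Arntl* (-0.10 to 0.21), *Clock* (-0.33 to 0.16), *Per2* (-0.54 to 0.083), *Cry1* (-0.20 to 0.040), *Cry2* (-0.19 to 0.13) and *Nr1d1* (-0.28 to 0.36), and sizes moved for *Per3* (0.14 to 0.73) and *Nr1d2* (0.22 to 0.61). Of 156 values of single genes under the alternatives, 139 kept their direction and side of the threshold, 5 lost and 4 gained a call, and 8 reversed. Same-numbered libraries share only a number, and their deviations correlated by 0.064 across genes, which are not independent replicates. Depth limits *Per3*, *Nr1d1* and *Per2* most, with 10 to 78 counts.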
